A study of Mus musculus with 9 samples.

Results

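Immediate early genes were followed in splenic Gr-1+ cells of mouse transplant hosts: Fos, Fosb, Jun, Junb, Atf3, Egr1, Nr4a1, Ier2, Dusp1 and Zfp36. All probes whose platform gene symbol is one of these 10 were taken, without regard to their signals. Of 45281 probes on the array 11 met this rule, 2 of them for Junb and 1 for each other gene. A signal of 14.3 served as the background limit. A gene was tested when a probe exceeded it on at least 3 of 9 arrays, as 9 of the 10 did among 10871 genes, and Nr4a1 did not.

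Immediate early genes are transcribed within minutes of a stimulus from factors already present in the cell, chiefly SRF with its partners and CREB, which MAP kinases activate. Fos and Jun proteins pair to form the transcription factor AP-1, and Egr1 is a zinc finger factor switched on by the same kinases. In myeloid cells some of these genes close the response again: Dusp1 removes phosphate from MAP kinases, and Zfp36 (tristetraprolin) brings mRNAs with AU-rich elements, such as that of Tnf, to decay. Handling of tissue and cells is also known to switch on these genes.

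KO cells came from hosts of the strain B6.129-Ido1tm1Alm/J, which lack the tryptophan-degrading enzyme IDO, on day 7 after allogeneic bone marrow transplantation. WT cells came from C57BL/6 (B6) hosts on day 7 after the same kind of transplantation. Syngeneic cells came from C57BL/6 (B6) hosts without graft-versus-host disease, on day 7 after a syngeneic transplantation. All hosts had thus received a marrow graft, and all cells had been isolated with magnetic beads for Gr-1 (Ly6G). The labels give neither the donor strain nor the age, sex or number of the animals, nor whether the Gr-1+ cells were of host or donor origin. Each group had 3 Illumina arrays, and the labels do not say whether each array is another animal; p-values rest on the spread among arrays, which may be technical. The KO arrays lay on a chip of their own and the 6 others shared a chip, so that chip and genotype cannot be told apart.

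WT replicate 2 stood apart, with a correlation of 0.919 to each other WT array, where arrays correlated at 0.992 or more within KO and at 0.998 within the syngeneic group. Of 14 neutrophil markers on the array, 13 were above the limit on enough arrays, and Mmp8 was at or below it on all 9. Their signals summed to 292792 to 305897 in KO, to 288881 and 282884 in WT replicates 1 and 3, to 132638 in WT replicate 2 and to 294345 to 295187 in syngeneic cells. Bright genes carry such sums, and genes of a list can differ. In WT replicate 2, Mpo (31053) exceeded WT replicates 1 and 3, and Elane (29464) lay between them. The other tested neutrophil markers were lower there. S100a8 read 23175 against 24637.5 and 24401, and Retnlg read 295 against 28562 and 30316. T cell markers (11 on the array, with Cd5 and Cd8a at or below the limit throughout) summed to 13720, 17611 and 23458 in KO replicates 1, 2 and 3, to 7740 and 7944 in WT replicates 1 and 3, to 54515 in WT replicate 2 and to 11406 to 11912 in syngeneic cells. Cd8b1 alone gave 5298.5 and 5567 of the sums in WT replicates 1 and 3, and 4434.5 to 5865 over all arrays. Erythroid markers (11 on the array, with Epb42 and Rhd at or below the limit throughout) summed to 3085 to 17121 in KO, to 17662 and 16766 in WT replicates 1 and 3, to 106997 in WT replicate 2 and to 101067 to 103166 in syngeneic cells. Monocyte and macrophage markers, 11 of 11 above the limit, summed to 42641 to 47154 in KO, to 33280 and 32955 in WT replicates 1 and 3, to 19239 in WT replicate 2 and to 89682 to 93653 in syngeneic cells. Ly6c1 went against these sums outside WT replicate 2, as Ccr2 did in WT replicates 1 and 3. Cx3cr1 went against them in WT replicate 2, at 490.8 against 70.9 and 56 in WT replicates 1 and 3. Marco, near the limit, was not lowest there either (12.2 against 7.3 and 30.8). Ly6c1 read 24763 to 25190 in KO, 23472.5 and 23303 in WT replicates 1 and 3, and 18018 to 20990 in syngeneic cells. B cell markers (7 on the array, with Pax5 and Cr2 at or below the limit throughout) summed to 656 to 805 in KO, to 408 and 413 in WT replicates 1 and 3, to 1856 in WT replicate 2 and to 1131 to 1226 in syngeneic cells. Platelet markers (7 on the array, with Pf4 at or below the limit throughout) summed to 179 to 220 in KO, to 194 and 227 in WT replicates 1 and 3, to 1001 in WT replicate 2 and to 296 to 365 in syngeneic cells. Itga2b went against the platelet sums outside WT replicate 2, and Cd22 in part against the B cell sums in KO. The part of these cells in the results was not tested. Counts of members that rose or fell are given with and without WT replicate 2, and counts by unadjusted p or by overlap with all arrays only. In such bulk RNA, fewer cells of a type and less RNA per cell cannot be told apart. Ido1, the targeted gene, read -2.3, 0.6 and -8.1 in KO cells, against 24.6, 33.8 and 20.0 in WT and 7.6, 3.9 and 13.3 in syngeneic cells; whether its probe lies in the deleted part is not known. Xist, transcribed from an inactive X chromosome, read -9.8, -10.3 and -4.7 in KO cells, against 347, 374 and 464 in WT and 910.2, 713 and 902 in syngeneic cells, so that genotype and sex of the cells cannot be told apart either.

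Promoters of 3 members are shown because WT replicate 2 departed furthest from its group for them and because they hold letters of elements that upstream factors bind. Each is the 250 bases before the RefSeq transcription start on GRCm38.p6, written 5′ to 3′. Capitals mark matches, on either strand, to the CArG box bound by SRF (CC, a run of A or T, GG), the CREB element TGACGTCA, its core TGACG, which TGACGTCA contains, or the NF-kB motif. The windows are Fos (chr12:85473640-85473889, plus strand), Dusp1 (chr17:26508473-26508722, minus strand) and Zfp36 (chr7:28379229-28379478, minus strand).

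Fos: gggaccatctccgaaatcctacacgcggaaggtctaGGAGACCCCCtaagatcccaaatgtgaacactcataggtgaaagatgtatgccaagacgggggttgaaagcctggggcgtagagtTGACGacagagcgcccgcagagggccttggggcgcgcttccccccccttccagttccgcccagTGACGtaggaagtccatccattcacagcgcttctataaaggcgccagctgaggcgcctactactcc

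Dusp1: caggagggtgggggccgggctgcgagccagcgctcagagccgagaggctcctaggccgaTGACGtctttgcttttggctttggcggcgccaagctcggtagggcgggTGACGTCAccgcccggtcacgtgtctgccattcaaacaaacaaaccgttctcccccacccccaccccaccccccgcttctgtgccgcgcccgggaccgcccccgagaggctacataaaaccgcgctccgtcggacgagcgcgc

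Zfp36: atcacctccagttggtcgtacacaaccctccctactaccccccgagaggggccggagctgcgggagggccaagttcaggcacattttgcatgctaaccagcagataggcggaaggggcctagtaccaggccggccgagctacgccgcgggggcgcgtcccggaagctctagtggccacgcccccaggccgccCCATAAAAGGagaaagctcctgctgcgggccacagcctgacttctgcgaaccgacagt

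Egr1 and Ier2 were not searched, nor were bases outside the windows of the other members. Among the 8 members searched, over 300 bases each, only Zfp36 held a CArG box, CCATAAAAGG, beginning 58 bases before the start; 1.63% of 32851 promoters hold one. Dusp1 held the whole CREB element 143 bases before its start, as do 1.79% of promoters, and a further core. Fos held the core TGACG at 129 and 66 bases before its start. This core, present in 20.8% of promoters, was also found for Fosb, Junb, Atf3 and Nr4a1, and the Jun window held none of the motifs. The NF-kB motif, in 4.51% of promoters, matched in Fos, Fosb and Nr4a1, and the AP-1 sites TGAGTCA and TGACTCA, in 5.2%, matched in no member searched. These matches describe letters only.

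KO vs WT asked whether immediate early genes differ between Gr-1+ cells of allogeneic hosts without and with IDO. With all arrays, 0 of 9 members rose and 0 fell by limma's test adjusted over all genes, where 2.02% of all genes passed, 1.19% higher and 0.837% lower. An unadjusted p under 0.05 was found for 1 of 9 (Ier2), against 18.9% of all genes. The members' median log2 fold change was 0.051, against -0.019 for all genes, and 0.033 against -0.0071 without WT replicate 2. Without WT replicate 2, 1 member fell (Zfp36) and 0 rose, where 20.0% of all genes passed, 10.3% higher and 9.77% lower.

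Zfp36 gave signals of 4637, 4831 and 5587 in KO cells, against 7494, 2764 and 7891 in WT and 5901, 6539.9 and 6351 in syngeneic cells. WT replicates 1 and 3 were the highest of all arrays, WT replicate 2 was the lowest, and the KO arrays lay below all syngeneic ones without overlap, as 24.5% of all genes did. The log2 fold change in KO vs WT was -0.13 ± 0.35 with all arrays (SE, n = 3 per group, limma, adjusted p = 0.869). Leaving out WT replicate 2, Zfp36 fell by 0.61 ± 0.096 (adjusted p = 0.00116), while the value was 0.095 without WT replicate 1 and 0.13 without WT replicate 3 (adjusted p = 0.901 and 0.848). The call and its direction thus rest on which WT arrays are used. For WT vs syngeneic the difference was -0.19 ± 0.35 (adjusted p = 0.756), and Zfp36 rose by 0.29 ± 0.096 once WT replicate 2 was left out (adjusted p = 0.0379). KO vs syngeneic gave -0.32 ± 0.35 (adjusted p = 0.634). There Zfp36 fell by 0.32 ± 0.086 when WT replicate 2 no longer entered the shared spread (adjusted p = 0.0115), and it passed on the 6 KO and syngeneic arrays alone (adjusted p = 0.0189).

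**Figure D1:**
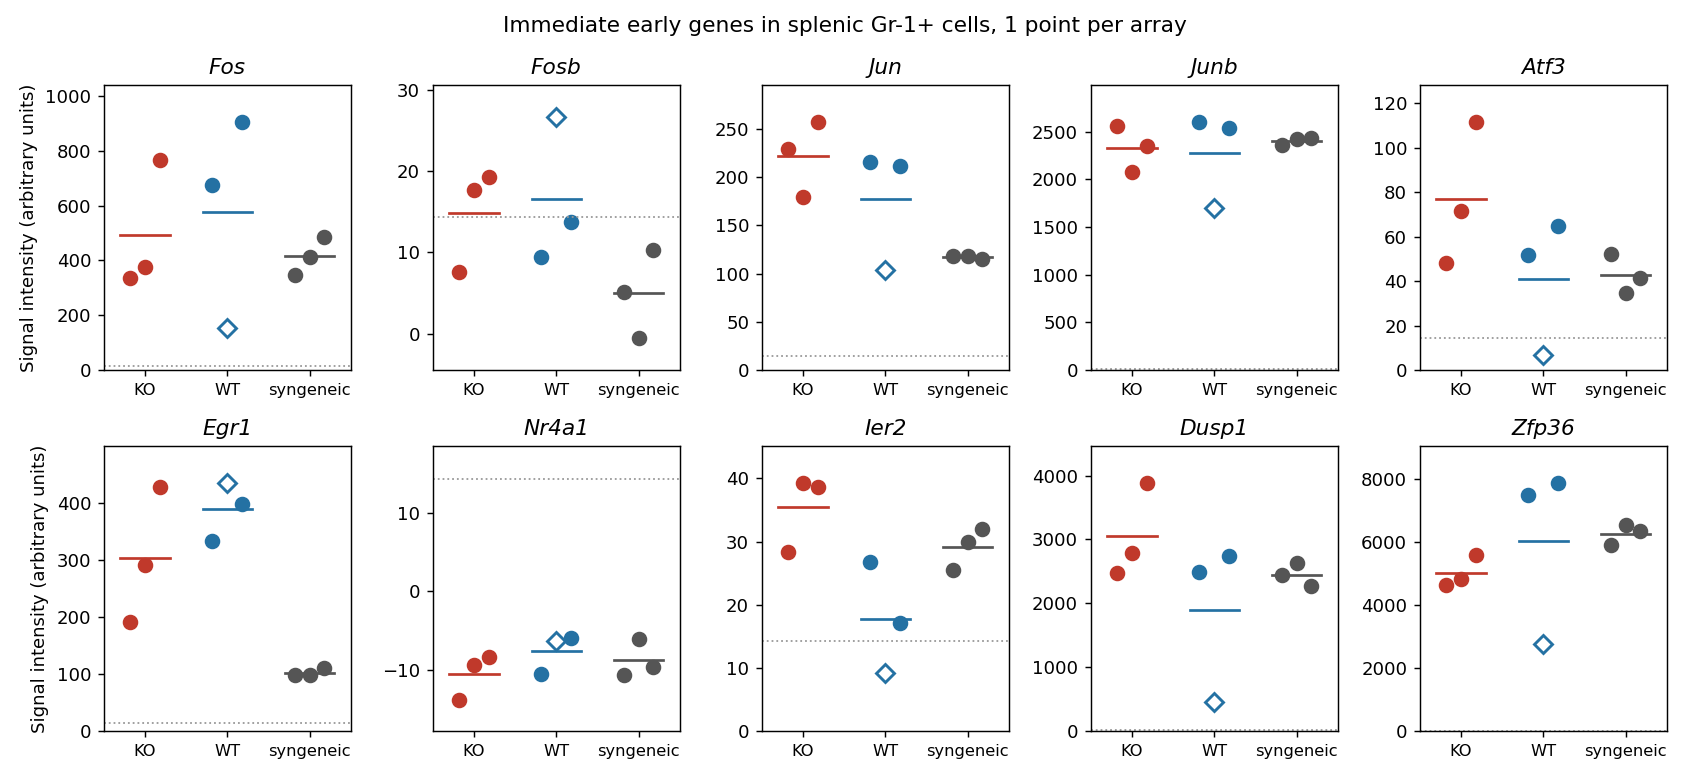
Deposited signal intensity (arbitrary units, linear axes that differ between panels) of the 10 immediate early genes on each array of KO, WT and syngeneic cells. Points are arrays, the open diamond is WT replicate 2, bars are group means and the dotted line is the background limit of 14.3. Egr1 was higher on all 6 allogeneic arrays than on any syngeneic one, and WT replicate 2 lay below the other WT arrays for Fos, Dusp1 and Zfp36.

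Dusp1, the phosphatase that switches off p38 and JNK, gave 2472, 2791 and 3885 in KO cells, against 2485, 451 and 2741 in WT and 2439, 2633 and 2266.5 in syngeneic cells. Apart from the low WT replicate 2 and the high KO replicate 3, all arrays lay between 2266.5 and 2791. The log2 fold change in KO vs WT was 0.98 ± 0.57 with all arrays and 0.19 ± 0.15 without WT replicate 2, and neither passed (limma, adjusted p = 0.399 and 0.413). WT vs syngeneic gave -0.70 ± 0.57 and 0.094 ± 0.15 (adjusted p = 0.466 and 0.689), so that the sign turned without that array. KO vs syngeneic gave 0.29 ± 0.57 with all arrays (adjusted p = 0.803).

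Fos, the AP-1 subunit with a short-lived mRNA, gave 337, 377 and 767 in KO cells, against 674, 153 and 904 in WT and 346, 414 and 487 in syngeneic cells. The groups overlapped in every pair, and each allogeneic group held an array far from its others. KO vs WT differed by -0.028 ± 0.53 on the log2 scale (limma, n = 3, adjusted p = 0.982), with a 95% interval of -1.23 to 1.18. With WT replicate 2 left out the difference was -0.68 ± 0.25 and did not pass (adjusted p = 0.0833). Fos rose by 0.82 ± 0.25 in WT vs syngeneic without that array (adjusted p = 0.0300), against 0.18 ± 0.53 with all arrays (adjusted p = 0.857). KO vs syngeneic differed by 0.15 ± 0.53 (adjusted p = 0.899).

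Jun, the partner of Fos in AP-1, gave 229, 179 and 257 in KO cells, against 216, 104 and 211 in WT and 118, 119 and 116 in syngeneic cells. All KO arrays and WT replicates 1 and 3 lay above the narrow syngeneic range, and WT replicate 2 lay below it. Jun did not pass in KO vs syngeneic with all arrays (0.64 ± 0.20 on the log2 scale, limma, adjusted p = 0.0740). It rose by 0.64 ± 0.095 without WT replicate 2 in the shared spread (adjusted p = 0.000240) and also passed on the 6 KO and syngeneic arrays alone (adjusted p = 0.000726). For WT vs syngeneic the value was 0.37 ± 0.20 with all arrays (adjusted p = 0.263), and Jun rose by 0.61 ± 0.11 without WT replicate 2 (adjusted p = 0.00119). KO and WT differed by 0.27 ± 0.20 with all arrays and by 0.033 ± 0.11 without that one (adjusted p = 0.492 and 0.866).

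Junb, another AP-1 subunit, gave 2559, 2077 and 2345 in KO cells, against 2599, 1695 and 2533 in WT and 2356, 2422 and 2431 in syngeneic cells. Its log2 fold changes lay between -0.10 and 0.051 over the 3 comparisons, each smaller than its SE of 0.16, and none passed by limma with or without WT replicate 2. The other Junb probe exceeded the limit only in KO replicate 1, at 17.9, and was not tested. Fosb, which can take the place of Fos, was near background, with 7.6, 17.7 and 19.3 in KO cells, against 9.4, 26.6 and 13.7 in WT and 5.1, -0.5 and 10.3 in syngeneic cells. It exceeded the limit on 2 KO, 1 WT and 0 syngeneic arrays. Only these allogeneic arrays brought Fosb into the test, so signals above the limit cannot decide whether it was higher than in syngeneic cells. Its log2 fold change was 0.19 ± 0.11 in KO vs syngeneic and 0.21 ± 0.11 in WT vs syngeneic. Neither difference passed (limma, adjusted p = 0.328 and 0.246). KO vs WT gave -0.027 ± 0.11 (adjusted p = 0.914).

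Atf3, a factor of the stress response that can pair with Jun, gave 48.3, 71.5 and 112 in KO cells, against 51.7, 7.0 and 64.9 in WT and 52.3, 34.6 and 41.7 in syngeneic cells. The value of WT replicate 2 was the only one below the limit. KO vs syngeneic differed by 0.37 ± 0.23 (limma, adjusted p = 0.369), and Atf3 rose by 0.37 ± 0.14 once WT replicate 2 left the shared spread (adjusted p = 0.0467). The KO vs WT difference was 0.44 ± 0.23 with all arrays and 0.18 ± 0.15 without WT replicate 2 (adjusted p = 0.365 and 0.438). WT vs syngeneic gave -0.062 ± 0.23 and 0.19 ± 0.15 (adjusted p = 0.888 and 0.376).

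**Figure D2:**
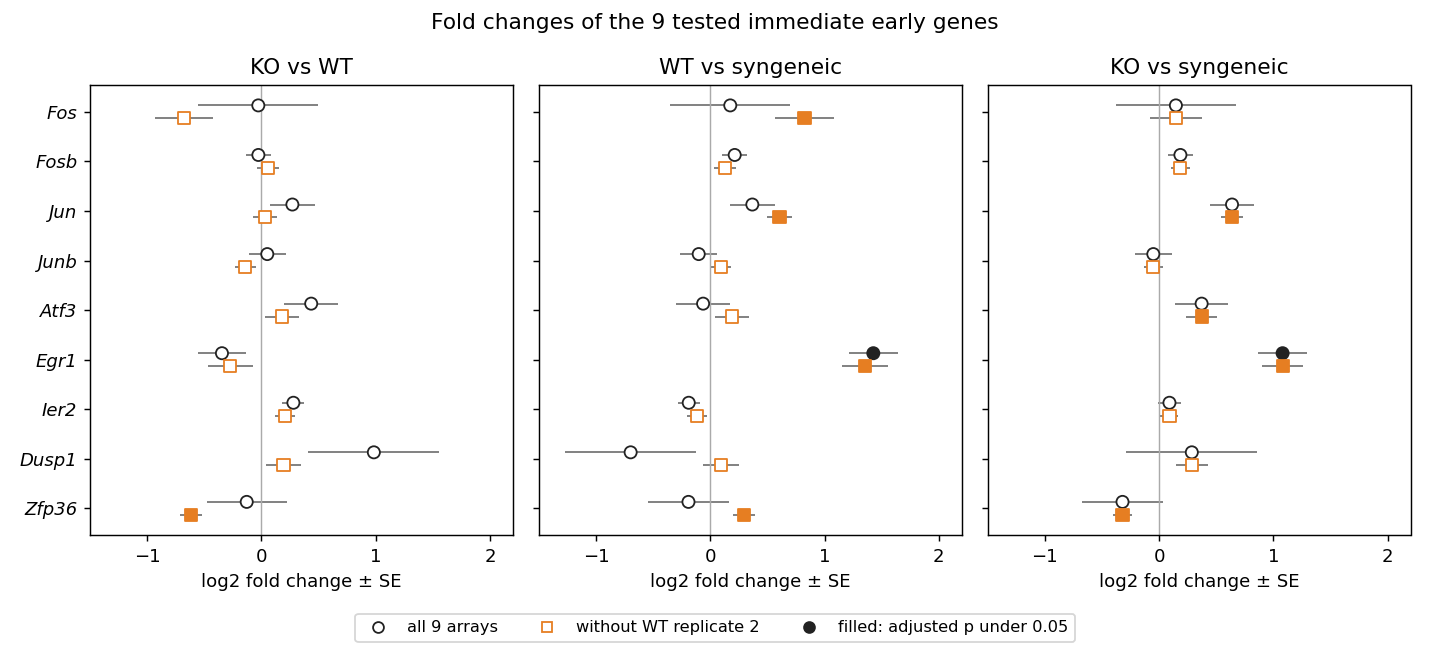
Log2 fold changes with their standard errors for the 9 tested members in KO vs WT, WT vs syngeneic and KO vs syngeneic, with all 9 arrays (circles) and without WT replicate 2 (squares); filled symbols have an adjusted p under 0.05. Egr1 is filled in both comparisons with syngeneic cells under both settings, and Zfp36 in KO vs WT is filled only without WT replicate 2.

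WT vs syngeneic compared allogeneic with syngeneic transplantation in hosts with IDO, on arrays of 1 chip. Here 1 of 9 members rose and 0 fell with all arrays, where 10.5% of all genes passed, 4.83% higher and 5.67% lower; 1 had an unadjusted p under 0.05, against 27.1% of all genes. Omitting WT replicate 2, 4 rose (Egr1, Fos, Jun and Zfp36) and 0 fell, against 29.6% of all genes passing, 14.6% higher and 15.0% lower. In KO vs syngeneic 1 rose and 0 fell with all arrays, where 12.0% of all genes passed, 5.09% higher and 6.89% lower; 2 had an unadjusted p under 0.05 (Egr1 and Jun), against 25.9%. With WT replicate 2 omitted, 3 rose (Egr1, Jun and Atf3) and 1 fell (Zfp36), against 39.3% of all genes passing, 19.3% higher and 20.0% lower. The members' medians were -0.062 in WT vs syngeneic and 0.19 in KO vs syngeneic, against 0.043 and 0.017 for all genes. Without WT replicate 2 the medians were 0.19 and 0.19, against 0.037 and 0.017, so that the sign turned in WT vs syngeneic. The 3 comparisons share their groups of arrays.

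Egr1 was the member that rose with all arrays. Its signals were 191, 290.2 and 427 in KO cells, against 333, 434.5 and 397 in WT and 97.2, 98.6 and 110.2 in syngeneic cells. All allogeneic arrays lay above all syngeneic ones, and KO and WT arrays overlapped. Egr1 rose by 1.43 ± 0.21 in WT vs syngeneic (log2 fold change ± SE, n = 3, limma, adjusted p = 0.00422) and rose by 1.08 ± 0.21 in KO vs syngeneic (adjusted p = 0.0132). The WT vs syngeneic call held in all 19 other settings run, with an adjusted p of at most 0.0259. The KO vs syngeneic call ended without KO replicate 2 (adjusted p = 0.0533) and without syngeneic replicate 1, 2 or 3 (adjusted p = 0.0594, 0.0567 and 0.0502), at log2 fold changes of 1.06 to 1.12. KO vs WT differed by -0.35 ± 0.21 (adjusted p = 0.421), with a 95% interval of -0.83 to 0.14.

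Ier2, a nuclear protein of the early response, was dim, with 28.4, 39.3 and 38.7 in KO cells, against 26.8, 9.2 and 17.1 in WT and 25.5, 30.0 and 32.0 in syngeneic cells. All KO arrays exceeded all WT arrays, as for 1 of 9 members and 10.8% of all genes, while 0 of 9 members and 12.6% of all genes were lower without overlap. The log2 fold change of 0.28 ± 0.097 did not pass (limma, adjusted p = 0.177, and 0.123 without WT replicate 2). Groups also lay apart for Egr1 in WT vs syngeneic, where 21.9% of all genes were higher and 16.6% lower without overlap, and for Jun and Egr1 in KO vs syngeneic, where 24.9% were higher. Nr4a1, the orphan nuclear receptor Nur77, read -13.8, -9.4 and -8.4 in KO cells, against -10.5, -6.3 and -5.9 in WT and -10.7, -6.1 and -9.6 in syngeneic cells, not above background on any array.

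Within groups the members varied by array. WT replicate 2 was the lowest WT array for 7 of 9 members, against 44.3% of all genes, and the highest for Egr1 and Fosb, against 44.7%. On the log2 scale, WT replicate 2 minus the mean of WT replicates 1 and 3 was -2.37 for Dusp1, -1.95 for Fos, -1.45 for Zfp36, -0.76 for Atf3 and -0.71 for Jun. The SD of this difference over all genes was 0.86, and that of WT replicate 1 minus 3 was 0.15. The same array had the low neutrophil and monocyte sums and the high T cell, B cell, erythroid and platelet sums, whose part in these values was not tested.

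KO replicate 3 was the highest KO array for 7 of 9 members, all but Junb and Ier2, against 31.6% of all genes. KO replicate 1 was the lowest for 7 of 9, all but Jun and Junb, against 39.4%. KO replicate 3 exceeded the mean of KO replicates 1 and 2 by 0.98 on the log2 scale for Fos, 0.70 for Egr1, 0.55 for Dusp1 and 0.50 for Atf3, where the SD over all genes was 0.19. Its T cell marker sum was the highest of the KO arrays and its erythroid sum the lowest, while the median difference of the neutrophil markers was -0.012. What these cells contributed was not tested.

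**Figure D3:**
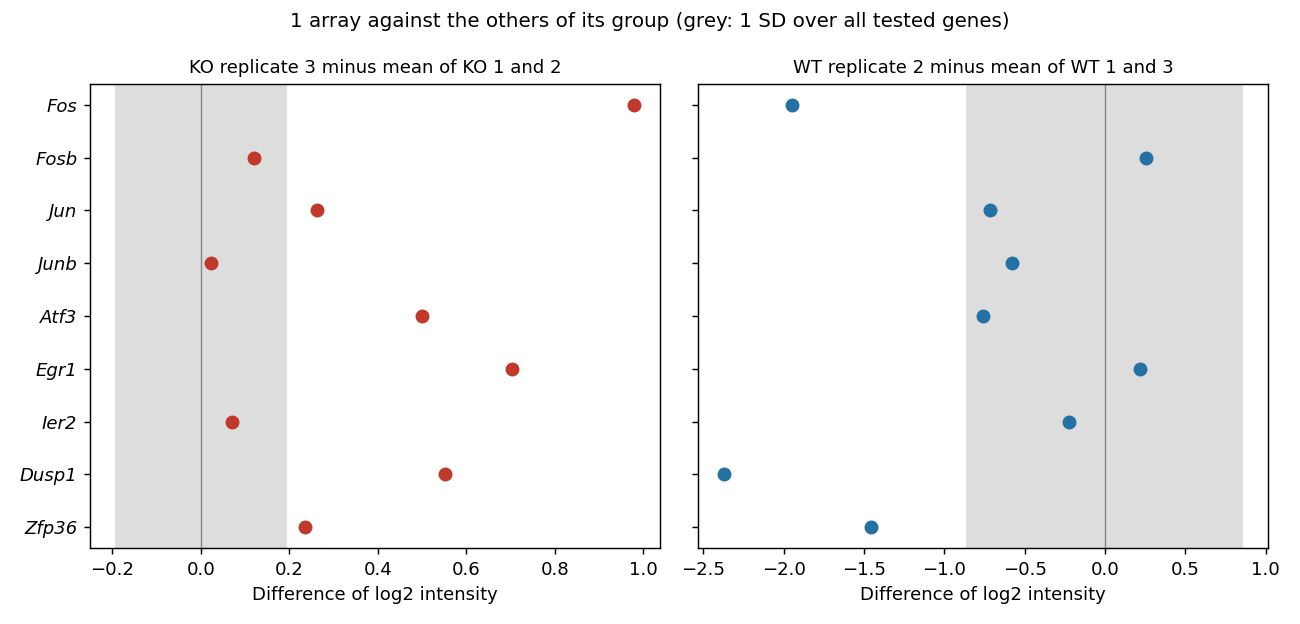
Difference of log2 intensity of KO replicate 3 from the mean of KO replicates 1 and 2 (left), and of WT replicate 2 from the mean of WT replicates 1 and 3 (right), for the 9 tested members; points are genes. The grey band is 1 SD of the same difference over all tested genes, and Fos lies outside it in both panels, at 0.98 in KO and -1.95 in WT.

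Likeness was measured by Pearson's r with the mean standardized profile of the 9 tested members. Each member is itself part of this profile, which raises its r, so that members and other genes cannot be compared by r. Over all 9 arrays, Atf3 (0.93), Fos (0.91), Dusp1 (0.85) and Jun (0.85) followed this profile most closely, and Egr1 (0.28) and Fosb (-0.048) least. Leaving out clone names and predicted genes, the 5 other genes most like it were Ccnyl1, Klra2, Slc2a1, Pstpip2 and Ttc33, with r of 0.96 to 0.97. Each of these was lowest on WT replicate 2. Pstpip2, for example, gave 216, 266 and 302 in KO cells, against 297, 35.3 and 305 in WT and 136, 147 and 142 in syngeneic cells. Over the 8 arrays without WT replicate 2, Egr1 followed the profile at 0.93, and Junb, Ier2 and Zfp36 at 0.064, 0.11 and 0.19. With the same names left out, the 5 other genes then most like it were Rbm28, Cep295, Mthfd2, Fars2 and Tspan5, with r of 0.96 to 0.97. Arrays of a group share their condition and preparation, so these coefficients only describe the arrays.

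AP-1 partners, the dimer partners of Fos and Jun and related factors, had 9 of 12 members tested. Of these 0 rose and 0 fell in KO vs WT, 1 rose and 1 fell in WT vs syngeneic, and 2 rose and 1 fell in KO vs syngeneic, where 2.02%, 10.5% and 12.0% of all genes passed. In KO vs WT 2 had an unadjusted p under 0.05, against 18.9% of all genes. Batf2, induced by interferon, gave 1271, 1047 and 1215 in KO cells, against 856, 216 and 798 in WT and 91.9, 114.5 and 115 in syngeneic cells. All allogeneic arrays were above all syngeneic ones, and Batf2 rose by 2.84 ± 0.40 in KO vs syngeneic (limma, adjusted p = 0.00294) and rose by 1.81 ± 0.40 in WT vs syngeneic (adjusted p = 0.0252). Batf3, which some dendritic cells need, fell by 0.48 ± 0.093 in KO vs syngeneic and fell by 0.63 ± 0.093 in WT vs syngeneic (adjusted p = 0.0126 and 0.00417). Atf4, the factor of the amino acid response, rose by 0.54 ± 0.084 in KO vs syngeneic (adjusted p = 0.00494). Its KO vs WT difference of 0.36 ± 0.084 did not pass with all arrays (adjusted p = 0.0738) and passed without WT replicate 2 (0.31, adjusted p = 0.0224). Over the other settings run, these calls held in 19 of 19 for Batf2, 15 of 19 for Batf3 and 18 of 19 for Atf4 in KO vs syngeneic and in 13 of 19 for Batf2 and 19 of 19 for Batf3 in WT vs syngeneic. List medians were 0.26, -0.11 and -0.02 in KO vs WT, WT vs syngeneic and KO vs syngeneic, against -0.019, 0.043 and 0.017 for all genes. With WT replicate 2 left out, 2 rose and 0 fell in KO vs WT, 2 rose and 3 fell in WT vs syngeneic, and 4 rose and 3 fell in KO vs syngeneic, where 20.0%, 29.6% and 39.3% of all genes passed.

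Further immediate early genes had 22 of 31 members tested, of which 0 rose and 0 fell in KO vs WT, 2 rose and 2 fell in WT vs syngeneic, and 1 rose and 2 fell in KO vs syngeneic, where 2.02%, 10.5% and 12.0% of all genes passed. An unadjusted p under 0.05 was found for 2 in KO vs WT, against 18.9% of all genes. Ppp1r15a, the GADD34 subunit that restores translation after stress, gave 204, 132 and 239.7 in KO cells, against 209, 746 and 198 in WT and 1464, 1600.5 and 1547 in syngeneic cells. Every allogeneic array lay below every syngeneic one, and Ppp1r15a fell by 2.66 ± 0.40 in KO vs syngeneic (limma, adjusted p = 0.00389) and fell by 2.04 ± 0.40 in WT vs syngeneic (adjusted p = 0.0155). Sgk1, a kinase induced by glucocorticoids, fell by 0.83 ± 0.17 in KO vs syngeneic and fell by 0.91 ± 0.17 in WT vs syngeneic (adjusted p = 0.0184 and 0.0147). Per1, a clock gene, rose by 0.37 ± 0.091 and rose by 0.36 ± 0.091 in the same comparisons (adjusted p = 0.0346 and 0.0443). Myc, a growth factor-induced transcription factor, rose by 1.06 ± 0.27 in WT vs syngeneic (adjusted p = 0.0458), where WT replicate 2 read 334 against 133 and 111.5 in WT replicates 1 and 3; without that array the difference was 0.70, adjusted p = 0.000395. Ier3 had the smallest p of the list in KO vs WT, at 1.00 ± 0.31 (adjusted p = 0.138), and it passed without WT replicate 2 at a smaller difference (0.58, adjusted p = 0.00191). The calls held over the other settings in 19 of 19 for Ppp1r15a, 15 of 19 for Sgk1 and 10 of 19 for Per1 in KO vs syngeneic and in 15 of 19 for Ppp1r15a, 17 of 19 for Sgk1, 8 of 19 for Per1 and 9 of 19 for Myc in WT vs syngeneic. Medians were 0.061, 0.042 and 0.071 in the order above, against -0.019, 0.043 and 0.017 for all genes. When WT replicate 2 was left out, 2 rose and 3 fell in KO vs WT, 5 rose and 3 fell in WT vs syngeneic, and 6 rose and 3 fell in KO vs syngeneic, where 20.0%, 29.6% and 39.3% of all genes passed.

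Feedback inhibitors of MAP kinases had 11 of 13 members tested, of which 1 rose and 0 fell in KO vs WT, 0 rose and 2 fell in WT vs syngeneic, and 1 rose and 1 fell in KO vs syngeneic, where 2.02%, 10.5% and 12.0% of all genes passed. Dusp16, a phosphatase of JNK, gave 577, 614 and 635 in KO cells, against 203, 354 and 184 in WT and 312, 281 and 335 in syngeneic cells. The KO arrays were above all others, and Dusp16 rose by 1.14 ± 0.18 in KO vs WT (limma, adjusted p = 0.0262) and rose by 0.85 ± 0.18 in KO vs syngeneic (adjusted p = 0.0200). Dusp8, a phosphatase of the same family, read 9.7, 10.9 and 12.8 in KO cells, against 28.4, 29.4 and 23.6 in WT and 43.3, 63.8 and 53.5 in syngeneic cells, and no KO array exceeded the limit. It was at least 1.48-fold lower in KO than in syngeneic cells (adjusted p = 0.00237) and fell by 0.35 ± 0.084 in WT vs syngeneic (adjusted p = 0.0335). Spred1, an inhibitor of the Ras pathway, fell by 0.68 ± 0.17 in WT vs syngeneic (adjusted p = 0.0424). Other settings kept the calls in 9 of 19 for Dusp16 in KO vs WT, in 13 of 19 for Dusp16 and 18 of 18 for Dusp8 in KO vs syngeneic and in 10 of 18 for Dusp8 and 7 of 19 for Spred1 in WT vs syngeneic, where the adjusted p of Spred1 reached 0.151. Medians were 0.12, -0.07 and 0.19 in the order above, against -0.019, 0.043 and 0.017 for all genes. Leaving out WT replicate 2, 5 rose and 1 fell in KO vs WT, 0 rose and 4 fell in WT vs syngeneic, and 3 rose and 2 fell in KO vs syngeneic, where 20.0%, 29.6% and 39.3% of all genes passed.

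Upstream kinases and factors had 17 of 29 members tested, of which 0 rose and 0 fell in KO vs WT, 0 rose and 1 fell in WT vs syngeneic, and 0 rose and 1 fell in KO vs syngeneic, where 2.02%, 10.5% and 12.0% of all genes passed. Mapk14, or p38 alpha, fell by 0.56 ± 0.14 in WT vs syngeneic (limma, adjusted p = 0.0421). Mapk8, or JNK1, fell by 0.58 ± 0.11 in KO vs syngeneic (adjusted p = 0.0114). Rps6ka3, a kinase below ERK, had the smallest p in KO vs WT, at -0.30 ± 0.094 (adjusted p = 0.142), and it passed without WT replicate 2 (-0.32, adjusted p = 0.0349). In that comparison 4 of the list had an unadjusted p under 0.05 with all arrays, against 18.9% of all genes. The calls were kept over the other settings in 16 of 19 for Mapk8 in KO vs syngeneic and in 7 of 19 for Mapk14 in WT vs syngeneic, where the adjusted p of Mapk14 reached 0.144. Medians were -0.077, -0.0074 and -0.095 in the order above, against -0.019, 0.043 and 0.017 for all genes. Omitting WT replicate 2, 1 rose and 3 fell in KO vs WT, 1 rose and 3 fell in WT vs syngeneic, and 2 rose and 3 fell in KO vs syngeneic, where 20.0%, 29.6% and 39.3% of all genes passed.

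The ZFP36 family and mRNAs known as its targets had 14 of 17 members tested, of which 1 rose and 0 fell in KO vs WT, 1 rose and 1 fell in WT vs syngeneic, and 1 rose and 0 fell in KO vs syngeneic, where 2.02%, 10.5% and 12.0% of all genes passed. Il1a, an inflammatory cytokine, gave 94.8, 160.4 and 118.5 in KO cells, against 48.2, 10.2 and 37.3 in WT and 182, 177 and 204 in syngeneic cells. All KO arrays lay between the WT and the syngeneic ones, and Il1a rose by 0.96 ± 0.17 in KO vs WT (limma, adjusted p = 0.0345) and fell by 1.38 ± 0.17 in WT vs syngeneic (adjusted p = 0.00179). Ccl3, a chemokine, gave 773.5, 936 and 2248 in KO cells, against 1075, 3567 and 1018 in WT and 186, 247 and 208 in syngeneic cells. It rose by 2.16 ± 0.52 in KO vs syngeneic and rose by 2.56 ± 0.52 in WT vs syngeneic (adjusted p = 0.0312 and 0.0177). Over the other settings the calls held in 8 of 18 for Il1a in KO vs WT, in 13 of 19 for Ccl3 in KO vs syngeneic and in 18 of 18 for Il1a and 16 of 19 for Ccl3 in WT vs syngeneic. Medians were 0.31, -0.072 and 0.30 in the order above, against -0.019, 0.043 and 0.017 for all genes. Without WT replicate 2, 7 rose and 2 fell in KO vs WT, 2 rose and 2 fell in WT vs syngeneic, and 7 rose and 2 fell in KO vs syngeneic, where 20.0%, 29.6% and 39.3% of all genes passed. Of all genes, 10.3%, 14.6% and 19.3% were then higher and 9.77%, 15.0% and 20.0% lower. Tnf, shown because the opening names it as a target, gave 439.6, 447.9 and 481.3 in KO cells. It gave 964.4, 255.3 and 1029.6 in WT and 938.6, 1039.3 and 912.3 in syngeneic cells. Binding by ZFP36 was not measured.

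NF-kB feedback genes had 9 of 11 members tested, of which 0 rose and 0 fell in KO vs WT, 0 rose and 1 fell in WT vs syngeneic, and 1 rose and 2 fell in KO vs syngeneic, where 2.02%, 10.5% and 12.0% of all genes passed. Cd83, a surface protein of activated antigen-presenting cells, gave 71.4, 94.5 and 74.5 in KO cells, against 71.0, 299 and 80.3 in WT and 711, 689.9 and 734 in syngeneic cells. It fell by 2.41 ± 0.33 in KO vs syngeneic (limma, adjusted p = 0.00252) and fell by 2.00 ± 0.33 in WT vs syngeneic (adjusted p = 0.00711). Nfkbia, which holds NF-kB in the cytoplasm, rose by 0.75 ± 0.20 and Nfkbiz fell by 0.66 ± 0.14 in KO vs syngeneic (adjusted p = 0.0464 and 0.0206). For KO vs WT, Nfkbia had the smallest p, at 0.70 ± 0.20 (adjusted p = 0.119), and it passed without WT replicate 2 at a smaller difference (0.44, adjusted p = 0.00655). With all arrays 2 of the list had an unadjusted p under 0.05 there, against 18.9% of all genes. The calls held over the other settings in 19 of 19 for Cd83, 14 of 19 for Nfkbiz and 8 of 19 for Nfkbia in KO vs syngeneic and in 19 of 19 for Cd83 in WT vs syngeneic. Monocyte and macrophage marker sums were also lower in both allogeneic groups. They were lowest on WT replicate 2, where Cd83 was the highest of the allogeneic arrays. The monocyte marker Cx3cr1 went against its sum there and was also the highest of the allogeneic arrays. B cell, erythroid and platelet marker sums were lower than in syngeneic cells on every allogeneic array but WT replicate 2. On those arrays the platelet marker Itga2b was instead higher, at 47.9 to 75.6 against 42 to 46.2 in syngeneic cells. The B cell marker Cd22 overlapped in KO, at 13.6, 35.6 and 34.1 against 24.2 to 31.2 in syngeneic cells. The part of these cells in these falls was not tested. Medians were -0.073, -0.085 and 0.10 in the order above, against -0.019, 0.043 and 0.017 for all genes. When WT replicate 2 was omitted, 1 rose and 0 fell in KO vs WT, 2 rose and 3 fell in WT vs syngeneic, and 2 rose and 3 fell in KO vs syngeneic, where 20.0%, 29.6% and 39.3% of all genes passed.

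Heat shock genes had 11 of 13 members tested, of which 0 rose and 0 fell in KO vs WT, 3 rose and 0 fell in WT vs syngeneic, and 3 rose and 0 fell in KO vs syngeneic, where 2.02%, 10.5% and 12.0% of all genes passed, 4.83% higher in WT vs syngeneic and 5.09% higher in KO vs syngeneic. Bag3, a co-chaperone, rose by 0.49 ± 0.11 in KO vs syngeneic and rose by 0.49 ± 0.11 in WT vs syngeneic (limma, adjusted p = 0.0267 and 0.0282). Hsp90aa1, the inducible HSP90, rose by 0.61 ± 0.16 and rose by 0.63 ± 0.16 in the same comparisons (adjusted p = 0.0477 and 0.0461). Hspa8, a constitutive HSP70, rose by 0.38 ± 0.095 in KO vs syngeneic (adjusted p = 0.0370). Hspe1, a mitochondrial chaperonin, rose by 0.81 ± 0.18 in WT vs syngeneic (adjusted p = 0.0232). Hspa1a, the stress-induced HSP70, gave 73.9, 32.5 and 113 in KO cells, against 2.4, -1.5 and 11.3 in WT and 23.9, 17.7 and 9.5 in syngeneic cells. All KO arrays exceeded all others and no WT array exceeded the limit, so that Hspa1a was at least 1.68-fold higher in KO than in WT cells. This difference did not pass with all arrays (adjusted p = 0.0577) and passed without WT replicate 2 (adjusted p = 0.00737); 4 of the list had an unadjusted p under 0.05, against 18.9% of all genes. Other settings kept the calls in 12 of 19 for Bag3, 10 of 19 for Hsp90aa1 and 10 of 19 for Hspa8 in KO vs syngeneic and in 9 of 19 for Bag3, 8 of 19 for Hsp90aa1 and 15 of 19 for Hspe1 in WT vs syngeneic. Medians were -0.025, 0.20 and 0.37 in the order above, against -0.019, 0.043 and 0.017 for all genes. Excluding WT replicate 2, 2 rose and 0 fell in KO vs WT, 5 rose and 0 fell in WT vs syngeneic, and 6 rose and 0 fell in KO vs syngeneic, where 20.0%, 29.6% and 39.3% of all genes passed, 14.6% higher in WT vs syngeneic and 19.3% higher in KO vs syngeneic.

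**Figure D4:**
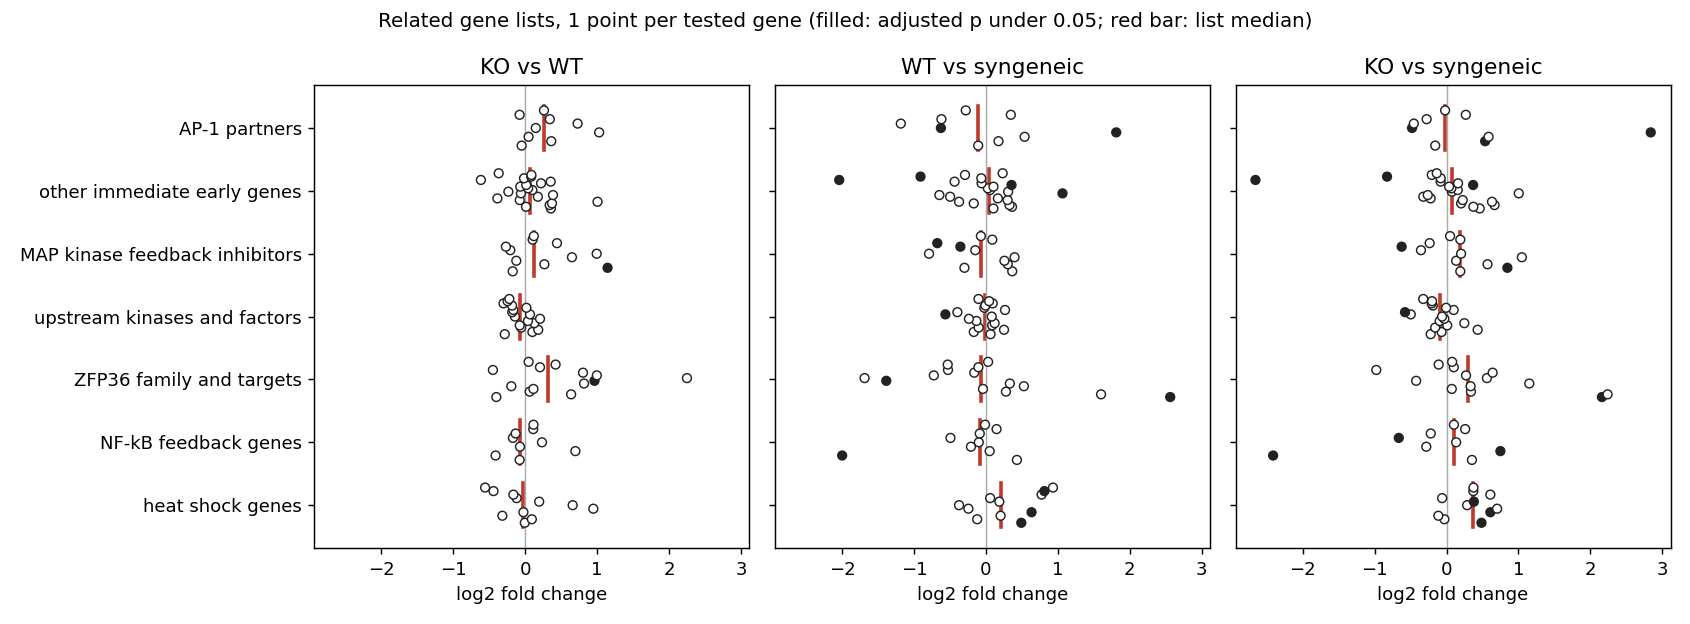
Log2 fold change of each tested gene of the 7 related lists in KO vs WT, WT vs syngeneic and KO vs syngeneic. Points are genes, filled points have an adjusted p under 0.05 and red bars are list medians; in KO vs WT the filled points are Dusp16 and Il1a.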

How the data were processed

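Gr-1+ cells of 9 samples were measured, 1 array each. The authors deposited intensity values per probe, with detection p-values, in a table whose name calls them not normalized. The signals nevertheless ran from -21.0 to 47219 over all arrays, with an upper quartile of 102 on KO replicate 1. Array medians of log2 signal lay within 5.244 to 5.248. The deposited intensity values thus appear background-subtracted and normalized between arrays, probably by quantiles. Per the submitters' processing notes GenomeStudio was used. The authors' deposited log2 values equal log2 of these intensities within 1.1e-06 (array medians 5.244 to 5.248) and lack the 35.6% of signals at or below 0. The deposited detection p-values were left out, since 752 of 10281 probes with a p of 0 on all arrays had a mean signal under 10.

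Signals were corrected by normexp (offset 50), quantile-normalized and fitted with limma 3.58.1 (R 4.3.3), with 1 mean per group over 9 arrays, eBayes and Benjamini-Hochberg adjustment over all genes at 0.05. Fold changes refer to offset intensities, which understates those of dim genes. The limit, 14.3, is the 95th percentile of 1617 probes of genes for sensory receptors and keratin-associated proteins. Probes above it on at least 3 arrays were kept (20750), 19155 to 19185 being above it on each array, and the brightest stood for each of 10871 genes. For a group not above the limit on any array, "at least" sets the brighter group's mean against the lowest signal above the limit. The platform annotation gave 1 symbol for 34885 probes, several for 18 and none for 10378; 34807 matched RefSeq gene IDs and 0 symbols differed. Named genes were the members, up to 3 calls per list, comparison and direction by p (otherwise the smallest p), and the 5 genes most like the members. Clone names and predicted genes were left out of the ranking by likeness. Members and lists were chosen with earlier results of these data known. The fit was tested on simulated data. The number of arrays limits the precision, and 0 pairs of arrays were identical. Alternatives are in the closing section.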

Additional observations from a re-analysis of the deposited data

How the results depend on the processing

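Array weights called 2960 genes and 1 member in KO vs WT, 4368 and 4 in WT vs syngeneic, and 4596 and 5 in KO vs syngeneic, against 220 and 0, 1141 and 1, and 1302 and 1 as reported. Testing each probe on its own called 523, 2133 and 2415 probes, with more features tested. Fits on only the 6 arrays compared called 2, 701 and 4007 genes, with 3 members in KO vs syngeneic. No further background correction called 109 genes in KO vs WT. Leaving out 1 array gave 34 to 2179 genes and 0 to 1 members in KO vs WT, 487 to 3216 and 1 to 4 in WT vs syngeneic, and 655 to 4274 and 0 to 4 in KO vs syngeneic, the highest each time without WT replicate 2. KO vs WT lost most calls without KO replicate 2 (34 genes left), and the comparisons with syngeneic cells without syngeneic replicate 3 (487 in WT vs syngeneic and 655 in KO vs syngeneic). With the replicate number as a block, 31, 720 and 912 genes were called, no member's call changed, and 15 of 33 calls of named list genes were lost, Dusp16 and Il1a in KO vs WT among them. Same-numbered arrays deviated together at r of -0.17 to 0.11. These values show no pairing by number, but with 3 arrays per group they cannot exclude it. Chip could not be fitted for KO arrays; WT and syngeneic arrays shared theirs. Causes of these shifts were not tested.

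Signs of members without a call turned. Under array weights the log2 fold change was 0.098 for Fosb and -0.19 for Junb in KO vs WT, and 0.088 for Junb, 0.17 for Atf3, 0.058 for Dusp1 and 0.27 for Zfp36 in WT vs syngeneic, the last with an adjusted p of 0.0327. Fos in KO vs WT was 0.021 without further background correction. Over single arrays left out, KO vs WT ran from -0.68 to 0.39 for Fos, -0.089 to 0.057 for Fosb, -0.14 to 0.16 for Junb and -0.61 to 0.13 for Zfp36. WT vs syngeneic ran from -0.25 to 0.82 for Fos, -0.21 to 0.092 for Junb, -0.23 to 0.19 for Atf3, -1.13 to 0.094 for Dusp1 and -0.45 to 0.29 for Zfp36, and KO vs syngeneic from -0.12 to 0.027 for Junb and -0.18 to 0.35 for Fos. Of the 33 calls of named list genes, 7 held in all settings that tested them; 0 were lost without WT replicate 2 and 25 without syngeneic replicate 3, the most for any array left out. Some list medians changed sign without WT replicate 2. In WT vs syngeneic they became 0.080 for AP-1 partners, 0.012 for upstream kinases and factors and 0.051 for the ZFP36 list. In KO vs WT they became 0.065 for NF-kB feedback genes and 0.045 for heat shock genes.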

Other observations

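Egr3, a relative of Egr1 chosen after its values were seen, read 38.0, 74.9 and 115 in KO cells, against 13.2, 144 and 12.2 in WT cells and at most 24.7 in syngeneic cells. The 4 highest values were those of WT replicate 2 and the KO arrays, which also had the 4 highest T cell marker sums, in the same order. The part of T cells in this signal was not tested.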
